A study of Homo sapiens with 2 samples.

Results

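The transcripts of 47 genes listed as encoding centromere and kinetochore proteins were compared between 2 RNA-seq libraries made from the human gastric carcinoma cell line HGC-27. The 47 genes were chosen by name and matched by Ensembl identifier to a deposited count table of 63677 genes, in which all 47 were found once. One culture was transfected with the pcDNA3.1 plasmid vector alone (control) and the other with pcDNA3.1 carrying the long non-coding RNA lncPSCA, using the reagent INTERFERin in both, and both were collected after 48 hours. With a single library in each group there is no replicate check and no test: intervals express counting error alone, and differences are between the libraries, not the conditions. One listed gene, BIRC6, encodes a very large ubiquitin ligase of the inhibitor of apoptosis family and not a kinetochore protein. It is kept among the 47 and named apart from the role groups.

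The kinetochore is the protein assembly that fastens a chromosome to spindle microtubules during cell division. Its foundation is chromatin that holds CENP-A, a centromeric variant of a core histone, which HJURP deposits and the MIS18 proteins license. A constitutive network of CENP proteins reads this chromatin throughout the cell cycle and recruits the outer KNL1, MIS12 and NDC80 complexes, the last of which binds microtubules. A fibrous corona, the spindle checkpoint and the chromosomal passenger complex act on this platform in mitosis. Many of these genes are transcribed most strongly before mitosis. Their RNA in bulk cells therefore follows both the share of dividing cells and the amount per cell, which cannot be told apart here.

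Levels are given as CPM, a count divided by its library's total after edgeR's TMM adjustment of that total and expressed on a common scale. All 47 genes had a mean of at least 1 CPM, the minimum for a gene to be called measured, and the least covered had 238 reads over both libraries. Together they held 0.243% of all counts in control and 0.231% in lncPSCA. A gene was called higher or lower in lncPSCA by size alone: at least 2-fold with a 95% counting interval wholly beyond 1.5-fold, or, by a wider rule, at least 1.5-fold with an interval that excludes 1.

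Gene counts summed to 21552098 in control and 23016646 in lncPSCA. PSCA, which shares its locus name with the transfected RNA, was counted 22 times in control and 28699 times in lncPSCA. The row of lncPSCA itself was not matched. Of 7 epithelial markers, KRT18 (4 and 0 reads), KRT19 (1 and 0) and EPCAM (7 and 7) were at or near 0, and CDH1 (26 and 20), KRT8 (66 and 58), CLDN7 (64 and 148) and MUC1 (105 and 165) were low. CLDN7 was higher in lncPSCA by the 2-fold rule (2.08-fold, 1.54 to 2.83). Of 5 mesenchymal markers, VIM (2601 and 2594 CPM) and COL1A1 (1112 and 1042 CPM) were abundant, COL1A2 had 259 and 394 reads and CDH2 had 4 and 6. FN1, with 554 and 1448 reads, was higher by the 2-fold rule (2.35-fold, 2.13 to 2.59). The endothelial markers PECAM1 and CDH5 had no reads and VWF had 5 and 13. The proliferation markers stood at 105 and 143 CPM for MKI67, 181 and 295 CPM for TOP2A, and 201 and 193 CPM for PCNA. The part of these markers in the members' differences was not tested.

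By the 2-fold rule, CENPF, KNTC1 and KNL1 were higher in the lncPSCA library and no member was lower. Over all 15440 measured genes, 3.02% were higher by this rule and 0.596% lower. The wider rule added CENPE and BIRC6 as higher and CENPA, HJURP and SPC25 as lower, giving 5 higher and 3 lower of 47, beside 10.5% and 5.41% of all measured genes. The remaining 39 members met neither rule. The median log2 ratio over the members was -0.16, and over all measured genes it was -0.02. In 23 of the 47 the counting interval lay below 1 (32.1% of all genes), in 8 above 1 (27.0%), and in 16 it held 1. By the wider rule 10.6% of the members were higher and 6.38% lower, both near the share over all genes. By the 2-fold rule 6.38% of the members were higher, which is 3 genes. In the deposited table CENPF is ENSG00000117724, KNTC1 is ENSG00000184445, KNL1 is ENSG00000137812, CENPE is ENSG00000138778, BIRC6 is ENSG00000115760, CENPA is ENSG00000115163, HJURP is ENSG00000123485 and SPC25 is ENSG00000152253.

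**Figure D1:**
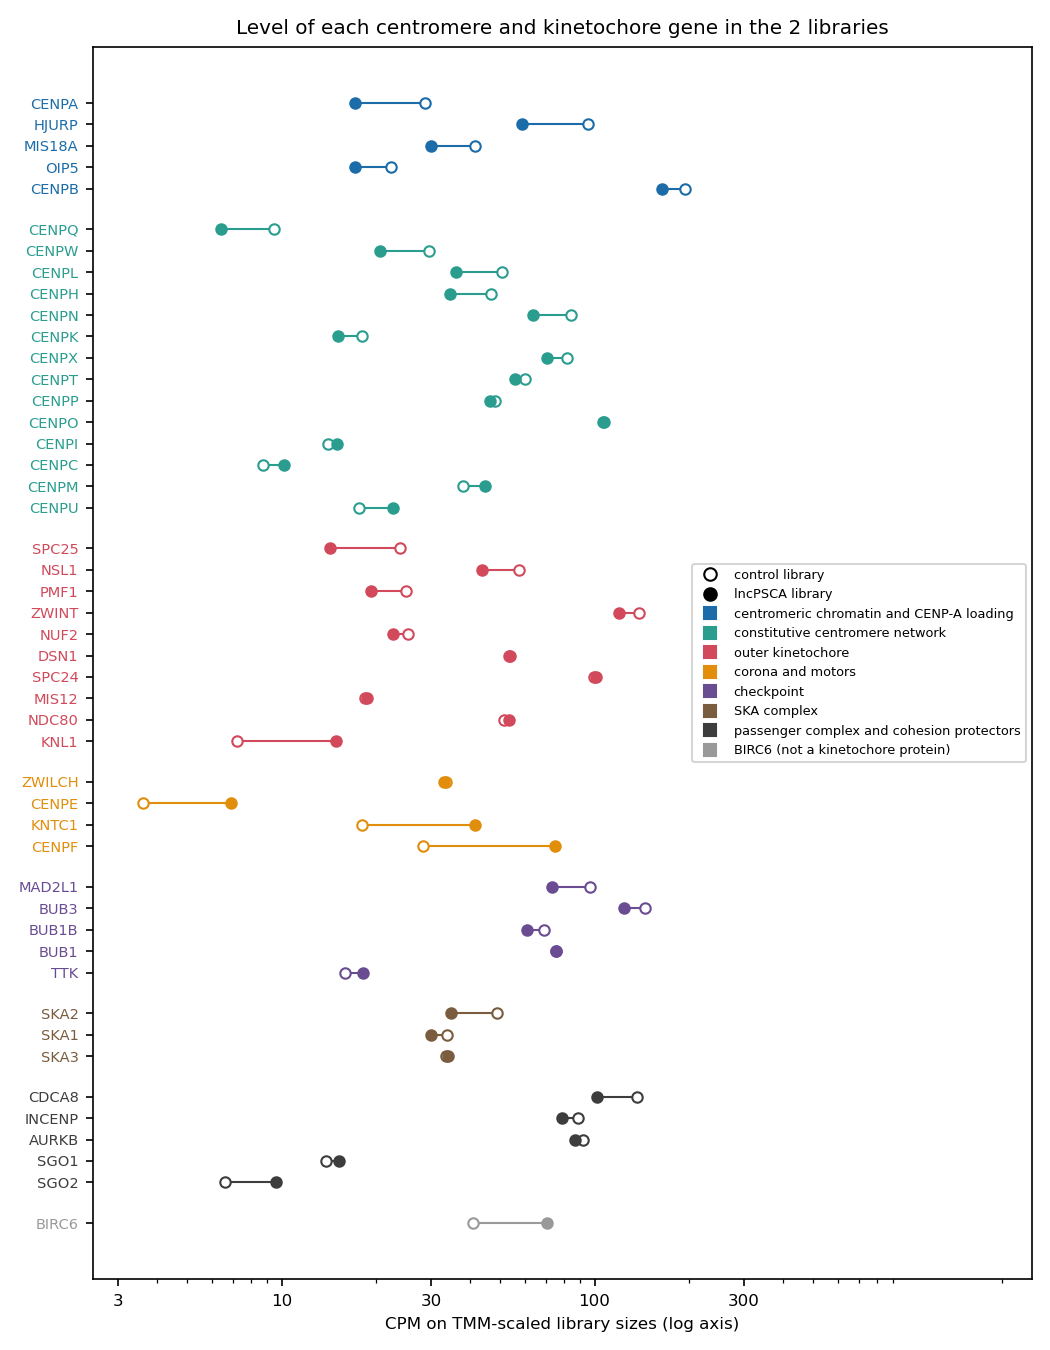
CPM of each of the 47 genes (log axis) in the control library (open circles) and the lncPSCA library (filled circles), 1 library each, grouped and coloured by role. CENPF stands at 28.4 and 75.0 CPM and KNTC1 at 18.0 and 41.5 CPM, while all 5 genes of centromeric chromatin and CENP-A loading lie to the left in the lncPSCA library.

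The genes of centromeric chromatin and CENP-A loading were all less abundant in the lncPSCA library, and their median log2 ratio of -0.47 was the lowest of the role groups. That median was -0.32 centred along transcript length and -0.28 along coding length, the latter chosen after the data were seen. CENPA, the histone variant itself, had 608 control reads and 404 lncPSCA reads, or 28.8 and 17.2 CPM. It was 1.68-fold lower (1.48 to 1.91). HJURP, its chaperone, had 2016 and 1377 reads, or 95.5 and 58.6 CPM, and was 1.63-fold lower (1.52 to 1.75). Before any centring, histone variant and chaperone thus differed by nearly the same factor, with overlapping intervals. Centred along coding length, a step added after the data were seen, CENPA was at a log2 ratio of -0.50 and HJURP at -0.80. MIS18A, which primes centromeres for loading, had 876 and 706 reads, a fold of 0.723 (0.654 to 0.800), and its partner OIP5 had 472 and 404 reads, a fold of 0.768 (0.671 to 0.879). CENPB, which binds a motif of alpha-satellite DNA, was the most abundant member per merged exon length, at 68.8 and 57.7 CPM per kilobase, with a fold of 0.840 (0.803 to 0.877). None of MIS18A, OIP5 and CENPB met either size rule, but all 5 intervals of the group lay below 1. Over all measured genes 32.1% of intervals lay below 1. Of the 3625 measured genes with a coding length under 1000 bases, as CENPA, MIS18A and OIP5 have, 1980 did. In GENCODE release 29, exons of OIP5-AS1 on the opposite strand cover 38.0% of the exon bases of OIP5, and SLC35F6 on the same strand covers 6.96% of those of CENPA. How reads in these overlaps were counted is not stated, so the counts of OIP5 and CENPA are uncertain to that extent.

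Of the 14 genes of the constitutive centromere network, none met either rule, and the median log2 ratio was -0.16. It was -0.11 centred along transcript length and -0.04 along coding length, the latter chosen after the data were seen. Intervals lay below 1 for 7 genes, above 1 for 2 and held 1 for 5. Over all measured genes 32.1% lay below 1 and 27.0% above. The median coding length of the network was 882 bases, and 1980 of the 3625 measured genes under 1000 coding bases had intervals below 1. CENPQ, with 199 and 151 reads, had the lowest fold of the network, 0.681 (0.547 to 0.846). CENPU, which sits in the same subcomplex and recruits the mitotic kinase PLK1, had 372 and 534 reads and the highest fold, 1.29 (1.13 to 1.47). These partners therefore lay on opposite sides of 1 with intervals that did not overlap. CENPW, a histone-fold protein, had 624 and 484 reads, a fold of 0.696 (0.617 to 0.785), whereas CENPT, which pairs with it on DNA, had 1268 and 1310 reads and a fold of 0.927 with an interval that held 1. CENPX, another histone-fold partner and the most abundant network member per exon length (53.5 and 46.0 CPM per kilobase), had a fold of 0.860. CENPL and CENPN, which form a dimer that binds the CENP-A nucleosome, had overlapping intervals: the fold was 0.716 (0.653 to 0.784) for CENPL and 0.757 (0.706 to 0.812) for CENPN. In the subcomplex of CENPH, CENPI, CENPK and CENPM the intervals lay on both sides of 1, with CENPH at 0.739 (0.673 to 0.812) and CENPM at 1.18 (1.07 to 1.29). CENPI and CENPK were at 1.07 and 0.839. CENPC, the large scaffold that links CENP-A to the MIS12 complex, had only 184 and 240 reads, and its fold of 1.17 (0.962 to 1.43) held 1. CENPO, with 2245 and 2530 reads, and CENPP, with 1015 and 1087, were nearly level, at 1.01 and 0.961. Exons of genes on the opposite strand cover 42.7% of the exon bases of CENPP, 31.4% of CENPO, 22.8% of CENPN, 19.6% of CENPT and 11.7% of CENPU.

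The outer kinetochore held the widest range of ratios of any role group, from -0.75 to 1.05 on the log2 scale, with a median of -0.08. The median was near 0 after either centring, at 0.02 along transcript length and -0.02 along coding length. The latter was chosen after the data were seen. KNL1, the scaffold on which checkpoint kinases assemble, had 152 control reads and 351 lncPSCA reads, or 7.20 and 14.9 CPM, and was 2.07-fold higher (1.71 to 2.52). SPC25 had 506 and 335 reads, or 24.0 and 14.2 CPM, and was 1.68-fold lower (1.46 to 1.94). SPC25 is a subunit of the NDC80 complex, whose other 3 subunits had intervals that held 1. NDC80 had 1083 and 1251 reads with a fold of 1.04 (0.955 to 1.13). NUF2 had 535 and 534 reads with a fold of 0.896 (0.793 to 1.01). SPC24, which pairs with SPC25 at the chromatin end of the rod, had 2096 and 2374 reads with a fold of 1.02 (0.958 to 1.08). The SPC24 and SPC25 intervals do not overlap, although their proteins form a dimer. In the MIS12 complex, NSL1 and PMF1 were at 0.761 (0.700 to 0.828) and 0.773 (0.680 to 0.878), and DSN1 and MIS12 were at 0.993 and 1.02 with intervals that held 1. PMF1 shares 23.3% of its exon bases with the read-through gene PMF1-BGLAP, so its count is uncertain. ZWINT, which binds KNL1, was the most abundant gene of the group per exon length (58.4 and 50.3 CPM per kilobase) and had a fold of 0.861 (0.817 to 0.907).

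Corona and motor genes had the highest median log2 ratio of the role groups, 1.06, with 2 of 4 higher by the 2-fold rule and 3 of 4 by the wider one. Over all measured genes these rules called 3.02% and 10.5% higher, and over those with a coding length over 6000 bases 14.3% and 37.6%. CENPF, KNTC1 and CENPE are of that length. The group median was 0.89 centred along transcript length and 0.73 along coding length. The coding-length values were chosen after the data were seen. CENPF, a microtubule-binding protein of the corona that is commonly used as a marker of late cell cycle, had 599 control reads and 1763 lncPSCA reads, or 28.4 and 75.0 CPM. Its fold of 2.64 (2.41 to 2.90) was the largest of all 47. KNTC1, the ROD subunit of the complex that brings dynein and checkpoint proteins to kinetochores, had 380 and 975 reads, or 18.0 and 41.5 CPM, and was 2.30-fold higher (2.04 to 2.60). ZWILCH, a subunit of the same complex, had 708 and 779 reads and a fold of 0.987 (0.891 to 1.09). KNTC1 and ZWILCH thus had intervals far apart. CENPE, the kinesin that carries chromosomes to the spindle equator, was the least abundant member, at 76 and 162 reads or 3.60 and 6.89 CPM. It was higher by the wider rule only, at 1.91-fold (1.45 to 2.55). CENPF, KNTC1, KNL1 and CENPE have no exon that overlaps another gene in GENCODE release 29. Exons of LCTL and RPL4 on the opposite strand cover 10.9% of the exon bases of ZWILCH, so its count is uncertain to that extent.

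No spindle checkpoint gene met either rule, and the median log2 ratio of the 5 was -0.18. MAD2L1, the diffusible checkpoint effector, had 2041 and 1725 reads and the lowest fold, 0.759 (0.711 to 0.809). BUB3 and BUB1B, with which it forms the checkpoint complex, were at 0.854 (0.811 to 0.898) and 0.884 (0.821 to 0.951). The kinase BUB1 was level, with 1590 and 1772 reads, 75.4 CPM in both libraries and a counting interval of 0.934 to 1.07. TTK, the kinase that starts the checkpoint signal, had 337 and 428 reads and a fold of 1.14 (0.986 to 1.32). BUB1B shares 10.2% of its exon bases with the read-through gene BUB1B-PAK6.

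The SKA complex tracks microtubule ends, and its 3 genes also met neither rule. SKA2 had a fold of 0.713 (0.649 to 0.782), SKA1 of 0.887 (0.799 to 0.986) and SKA3 of 1.02 (0.918 to 1.13). The passenger complex and cohesion group had a median log2 ratio of -0.08, which lay above 0 after centring along transcript length (0.06). None of its 5 genes met either rule. CDCA8, which encodes borealin, had 2885 and 2386 reads and a fold of 0.742 (0.703 to 0.784). The scaffold INCENP was at 0.891 (0.835 to 0.950) and the kinase AURKB at 0.943, with an interval that held 1. The shugoshins, which protect centromeric cohesion, both lay above 1. SGO1 had a fold of 1.10 that held 1, and SGO2, with 139 and 225 reads, had a fold of 1.45 (1.17 to 1.81), just under the wider limit. SGO2 passed that limit on total-count scaling, which gave 6 members higher. Exons of SGO1-AS1 on the opposite strand cover 17.7% of the exon bases of SGO1, so the SGO1 count is uncertain to that extent. BIRC6, outside the kinetochore, had 861 and 1654 reads, or 40.8 and 70.4 CPM, and was 1.72-fold higher (1.59 to 1.87).

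**Figure D2:**
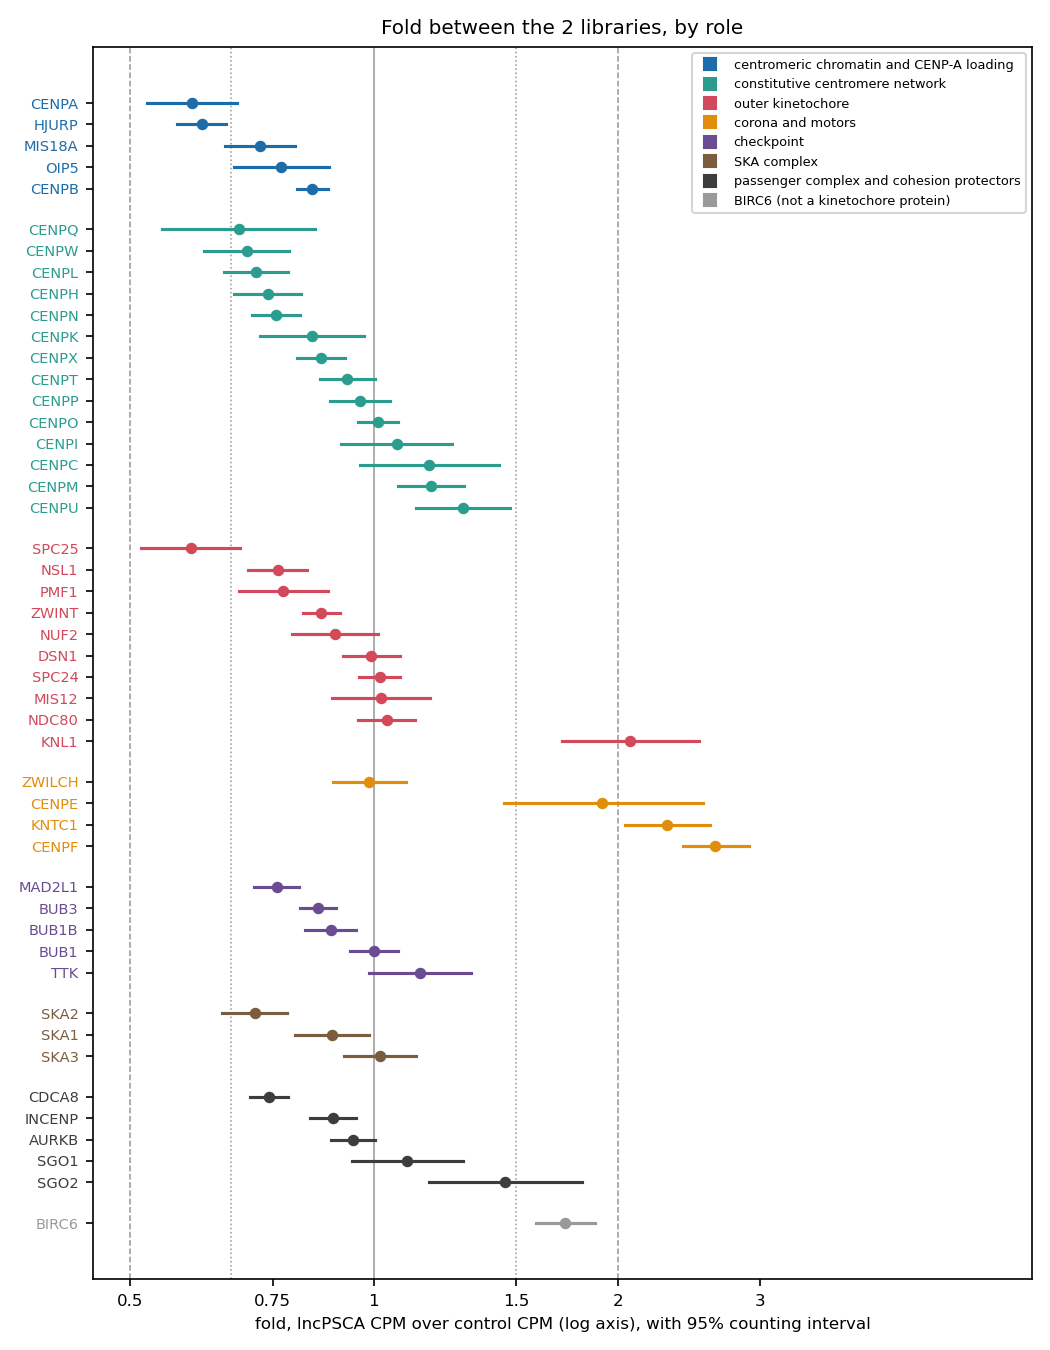
Fold of lncPSCA CPM over control CPM for each of the 47 genes (log axis), with points for the fold and bars for the exact 95% counting interval, 1 library per group. Dotted lines mark 1.5-fold and dashed lines 2-fold in either direction. CENPF, KNTC1 and KNL1 lie beyond 2-fold, CENPE and BIRC6 between 1.5-fold and 2-fold, and CENPA, HJURP and SPC25 beyond 1.5-fold on the lower side.

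Levels per exon length, taken over the merged exons of a gene, largely kept their order between the libraries, with a rank correlation of 0.97 over the 47 genes. Ranks and spans by another length measure were not compared and may differ. In the control library they ran from 0.381 CPM per kilobase for CENPE to 68.8 for CENPB. KNL1 was the second lowest in control, at 0.703 CPM per kilobase, and remained near the bottom at 1.46 in lncPSCA. Within complexes whose subunits occur in equal numbers, the RNA levels were unequal in both libraries. In the NDC80 complex SPC24 exceeded NUF2 by 4.64-fold in control and 5.26-fold in lncPSCA. In the MIS12 complex DSN1 exceeded MIS12 by 3.36-fold and 3.27-fold. Among CENPH, CENPI, CENPK and CENPM the highest, CENPM, exceeded the lowest, CENPI, by 6.54-fold and 7.21-fold. In the other 4 complexes the spans were 3.93-fold and 5.26-fold among CENPO, CENPP, CENPQ and CENPU, 4.93-fold and 4.58-fold among CENPT, CENPW and CENPX, 2.80-fold and 2.34-fold in the passenger complex, and 2.29-fold and 2.42-fold between CENPN and CENPL.

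**Figure D3:**
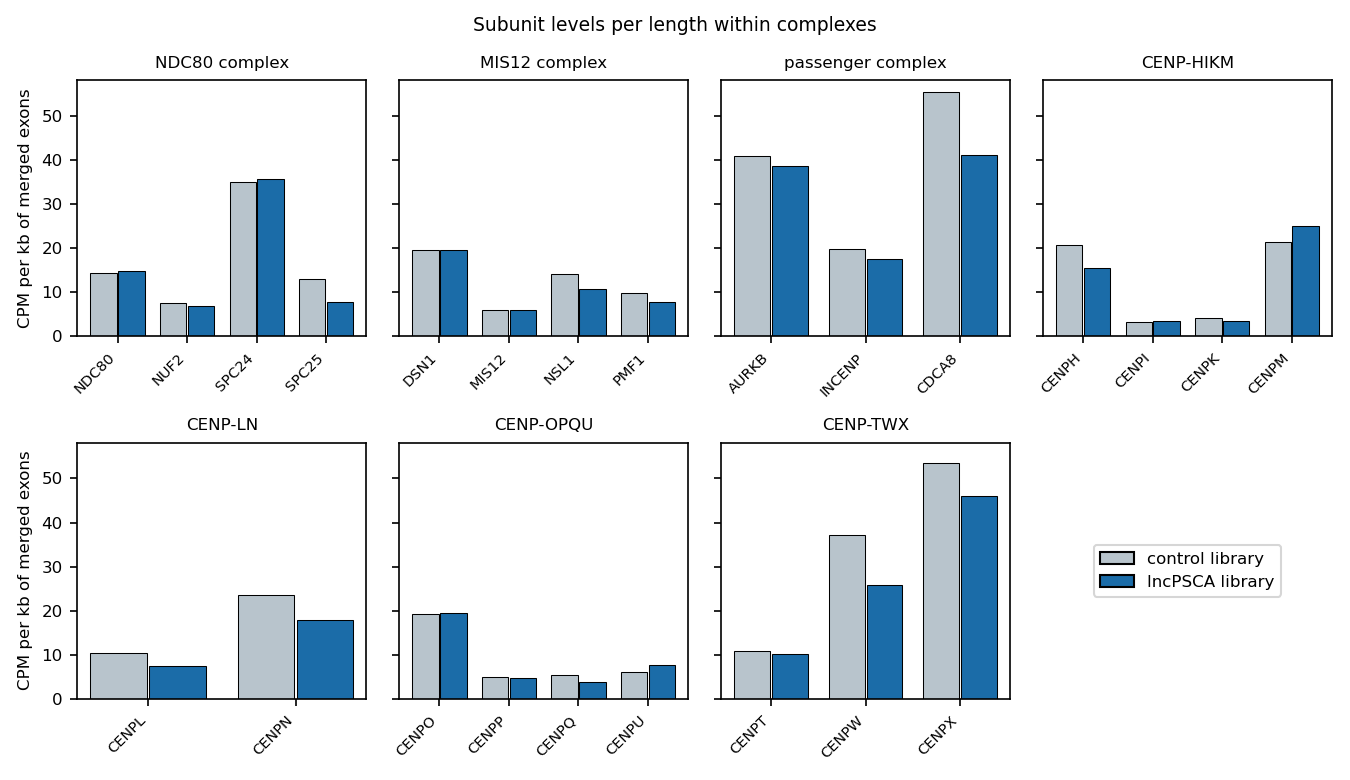
CPM per kilobase of merged exon length for the subunits of 7 kinetochore complexes in the control (grey) and lncPSCA (blue) libraries, 1 library each, with bars starting at 0. SPC25 stands at 13.0 and 7.74 CPM per kilobase, beside 14.3 and 14.8 for NDC80 and 35.0 and 35.6 for SPC24.

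The ratio was then set against gene length. Across the 47 members, the Spearman correlation of log2 ratio with the longest annotated transcript was 0.53, and across 14993 measured genes with a length in GENCODE release 29 it was 0.24. The direction depends on the length used: over the members the correlation was -0.11 with the median transcript length of each gene and 0.57 with merged exon length. These points are genes of the same 2 libraries and not independent replicates. With the longest coding length in place of transcript length, a measure chosen after the values were seen, the correlation was 0.63 over the members and 0.39 over 12195 measured genes. BUB3, CENPP and MAD2L1 have long annotated transcripts (7828, 8766 and 5468 bases) and short coding sequences (984, 864 and 615 bases). Their log2 ratios were -0.23, -0.06 and -0.40.

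The division at 6000 and 1000 coding bases was also chosen after the values were seen. The 5 members with a coding length over 6000 bases were the same 5 that were higher by the wider rule: KNTC1 (6627 bases), KNL1 (7026), CENPE (8103), CENPF (9342) and BIRC6 (14571). Their log2 ratios ran from 0.79 to 1.40, with a median of 1.05. Among all 356 measured genes of that coding length the median was 0.42, 37.6% were higher by the wider rule and 14.3% by the 2-fold rule. At the other end, 22 members had a coding length under 1000 bases, with a median of -0.38 and 17 intervals below 1. All 3625 measured genes that short had a median of -0.19, with 1980 intervals below 1. The 20 members in between had a median of -0.01, beside 0.05 for 8214 genes of like length. HJURP, with a coding length of 2244 bases and a log2 ratio of -0.71, was the lowest of these 20. Without the 5 longest the correlation was 0.36 for transcript length and 0.49 for coding length over 42 genes.

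**Figure D4:**
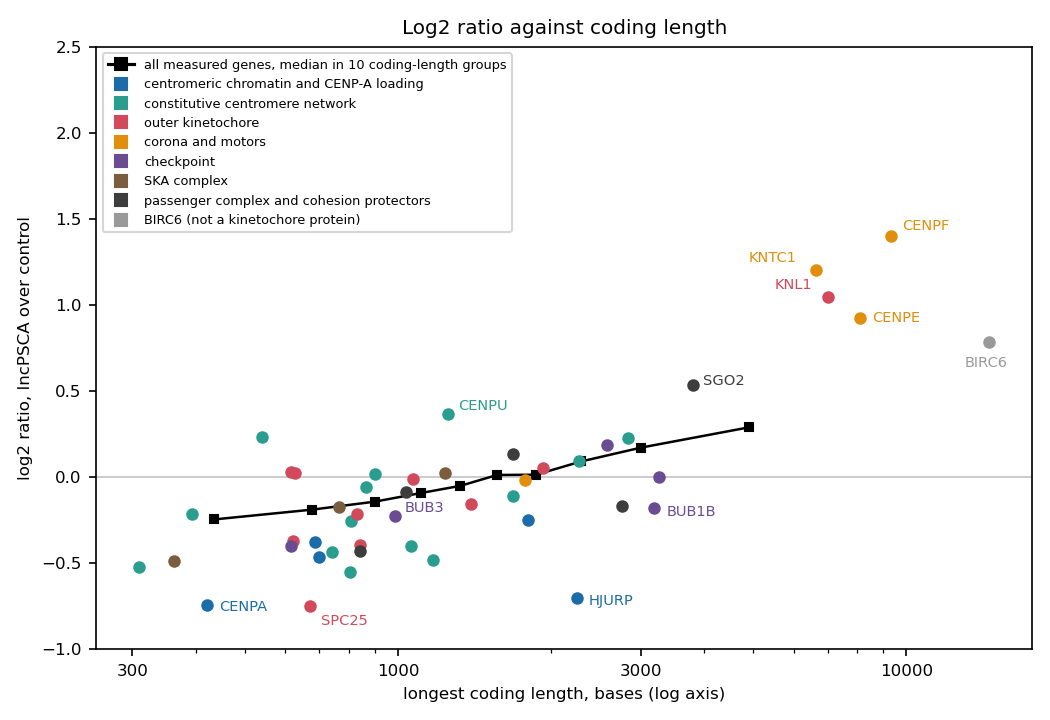
Log2 ratio of lncPSCA over control against the longest coding length (log axis) for the 47 genes, coloured by role, with black squares for the median of all measured genes in 10 groups of coding length. The 5 genes over 6000 bases lie between 0.79 and 1.40, above the median of 0.29 in the longest group, and HJURP lies at -0.71 far below the black line.

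Subtracting the running median of genes of like length left part of these differences. Centred along transcript length, CENPF was at a log2 ratio of 1.12 and KNTC1 at 1.06, and both still met the 2-fold rule, while KNL1 (0.79) met only the wider one. CENPE remained at 0.72 and BIRC6 fell short of the wider rule at 0.46. HJURP, CENPA and SPC25 still met the wider rule at -0.64, -0.60 and -0.60. When GC content was centred as well, a step added after the data were seen, SPC25 (-0.60) met it and HJURP (-0.56) and CENPA (-0.54) did not. After centring along mean expression and then transcript length, HJURP (-0.57), CENPE (0.55) and BIRC6 (0.54) did not meet the wider rule. KNL1 (0.66) met only the wider one there. Centring along coding length was also added after the data were seen. That centring left CENPF (1.04) as the only member higher by the 2-fold rule. By the wider rule CENPF, KNTC1 (0.87) and KNL1 (0.71) were higher and only HJURP (-0.80) was lower. The HJURP ratio was further from 0 than before centring (-0.71). Within its transcript-length group of 1500 genes, CENPF ranked at the 97.9th percentile of log2 ratio, and KNTC1 at the 97.2nd within its group of 1499. HJURP ranked at the 2.40th. Whether length itself or another property that goes with it underlies these differences was not tested.

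Other genes of the same machinery are given for comparison, from lists chosen with earlier results of these data known. Of 25 other centromere and kinetochore genes, 3 were higher and 1 lower by the wider rule, none met the 2-fold rule, and the median log2 ratio was -0.03. By the wider rule that is 12% and 4%, beside 10.5% and 5.41% of all measured genes. The higher ones included RSF1 (540 and 1080 reads, 1.79-fold, 1.62 to 1.99), a chromatin remodeller subunit found at centromeres, and the kinesin KIF18A (1.51-fold, 1.26 to 1.80). The lower one was BIRC5, which encodes survivin, the remaining subunit of the passenger complex. It had 4636 and 3126 reads, or 220 and 133 CPM, and was 1.65-fold lower (1.58 to 1.73). CDC20 and PLK1, both abundant mitotic regulators, were at 0.758 and 0.707 without meeting a rule.

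Of 31 mitotic genes, 4 were higher and 3 lower by the wider rule, none met the 2-fold rule, and the median was -0.10. These are 12.9% and 9.68%, beside 10.5% and 5.41% of all measured genes. ASPM (1.99-fold, 1.75 to 2.25), KIF14, KIF20B and TOP2A (1.63-fold, 1.56 to 1.69) were higher, and AURKA (1.74-fold, 1.63 to 1.86), PTTG1 and LIN37 were lower. MKI67, a proliferation marker, was at 105 and 143 CPM, a fold of 1.36. Of 19 measured S phase genes 1 (5.26%) was higher, POLA1 (1.51-fold, 1.35 to 1.69), none was lower, and the median was 0.06. Correlations of the ratio with the longest transcript were 0.63, 0.76 and 0.27 in the order given, beside 0.24 over all measured genes. Median transcript length, which gave the opposite sign over the members, was not tried in these lists. Mitotic genes thus met the wider rule in both directions, as did genes over the whole table.

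Promoter sequences were set beside these values because cell-cycle genes of this class are known to be repressed in resting cells through the CHR, a short element bound by the DREAM and MuvB complexes, and activated through CCAAT boxes bound by NF-Y. RefSeq promoter entries (GRCh38.p14) were matched for 39 of the 47 genes. KNTC1 and KNL1, both higher by the 2-fold rule, were among the genes without an entry. The search covered the 250 bases before each start, on both strands, for the CHR core, spelled TTTGAA, with its variant spelled TTTAAA, and for the box spelled CCAAT. No CHR match overlaps a CCAAT match in the sequences shown. These 39 genes have 46 promoter entries, some genes having more than 1. A CCAAT match was found in 60.9% of the 46 entries and in 32.0% of all 35116 entries. A CHR match was found in 26.1% of the 46 and in 21.9% of all. Both were present in 21.7% of the 46 and in 7.64% of all. By gene, 25 of the 39 members had CCAAT in at least 1 entry, 11 had CHR and 9 had both. The median log2 ratio was -0.22 for members with CCAAT and -0.01 for those without, -0.18 with CHR and -0.10 without, and -0.22 with both and -0.10 for the rest. Members with both matches spanned the full range from -0.75 to 1.40. The following promoters belong to a pair of higher and 3 lower members and are shown so that the letters can be set beside the direction. BIRC6, also higher by the wider rule, had an entry with neither match and is not shown. Capitals mark CHR and CCAAT matches on either strand, each sequence runs 5′ to 3′ along the gene and ends at the base before the start.
CENPF: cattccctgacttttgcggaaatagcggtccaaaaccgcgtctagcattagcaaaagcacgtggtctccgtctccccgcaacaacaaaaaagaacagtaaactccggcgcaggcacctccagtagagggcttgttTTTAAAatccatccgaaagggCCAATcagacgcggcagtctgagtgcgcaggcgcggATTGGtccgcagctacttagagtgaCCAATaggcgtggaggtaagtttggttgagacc
CENPE: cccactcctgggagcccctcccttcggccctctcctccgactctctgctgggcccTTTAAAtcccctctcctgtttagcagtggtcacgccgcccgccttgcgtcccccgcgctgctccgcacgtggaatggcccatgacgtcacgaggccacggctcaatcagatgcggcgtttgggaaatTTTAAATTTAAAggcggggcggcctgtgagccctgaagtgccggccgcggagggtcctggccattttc
CENPA: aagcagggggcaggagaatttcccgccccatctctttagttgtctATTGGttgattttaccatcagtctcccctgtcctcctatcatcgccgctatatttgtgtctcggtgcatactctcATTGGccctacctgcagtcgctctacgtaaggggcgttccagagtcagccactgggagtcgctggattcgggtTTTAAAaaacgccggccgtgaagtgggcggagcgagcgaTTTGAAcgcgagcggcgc
HJURP: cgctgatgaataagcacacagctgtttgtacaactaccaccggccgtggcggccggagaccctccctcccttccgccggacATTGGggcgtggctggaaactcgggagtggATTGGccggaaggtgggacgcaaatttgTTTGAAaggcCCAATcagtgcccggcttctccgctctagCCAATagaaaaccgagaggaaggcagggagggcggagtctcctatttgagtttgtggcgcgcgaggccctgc
SPC25: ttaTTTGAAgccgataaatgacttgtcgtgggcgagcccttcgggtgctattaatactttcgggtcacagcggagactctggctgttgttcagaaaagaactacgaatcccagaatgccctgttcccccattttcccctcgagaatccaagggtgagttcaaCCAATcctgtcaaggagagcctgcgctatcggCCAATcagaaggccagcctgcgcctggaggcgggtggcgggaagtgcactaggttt

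The CENPF promoter (chr1:214602945-214603194, plus strand) held 3 CCAAT matches and 1 CHR match. That of CENPE (chr4:103198344-103198593, minus strand) held 3 CHR matches and no CCAAT. Among the lower genes, CENPA (chr2:26785806-26786055, plus strand) held 2 of each, with a CHR match ending 12 bases before the start. HJURP (chr2:233854536-233854785, minus strand) held 4 CCAAT matches and 1 CHR match. SPC25 (chr2:168890431-168890680, minus strand) held 2 CCAAT matches and 1 CHR match at the far end of the window. The same 2 kinds of match therefore stood before CENPF, 2.64-fold higher, and before CENPA and HJURP, both lower. A match is a description of letters and not a site shown to be used in these cells.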

How the data were processed

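RNA was sequenced from 1 control and 1 lncPSCA library of HGC-27 cells. The authors deposited raw read counts per Ensembl gene, made with TopHat2 and HTSeq on hg19, per the submitters' processing notes, which carry no version numbers. The annotation release, strand setting, library kit and handling of multiply mapped reads were not given in the sources used here. Symbols were assigned by identifier for 81.9% of 63677 rows. Lengths, coding lengths and overlaps came from GENCODE release 29 (GRCh38), another build, matched by identifier.

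Counts were scaled by TMM (edgeR 4.0.16, factors 0.979 and 1.02). The log2 ratio used a pseudocount of 1 scaled to library size, and folds are CPM ratios without it. Intervals are exact 95% Clopper-Pearson intervals on the share of reads. They cover counting error only, and reads without molecular identifiers can make them too narrow. Centring subtracted a running median over 1001 genes. With 1 library per group no test was run and no p-value is given. The script was tested on simulated data. Every listed member could be named, with full values for those meeting a rule and, in each role group, the most abundant per length and those with the highest and lowest ratio. Members, lists and rules were chosen with earlier results of these data known. Alternatives covered scaling (DESeq2 1.42.0 size factors, total counts, upper quartile), CPM minimum, pseudocount, centring and length measure. One gene of the comparison lists is not reported here.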

Additional observations from a re-analysis of the deposited data

How the results depend on the processing

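No paired analysis was possible because each group has 1 library, and no library could be left out. The 3 higher and 0 lower members by the 2-fold rule, and the 5 and 3 by the wider rule, changed by at most 1.5 times under DESeq2 size factors, total counts, upper-quartile scaling, no CPM minimum, a minimum of 5 CPM, pseudocounts of 0.5 and 5, centring along mean expression, centring along transcript length, and without BIRC6. Scaling alone moved the median of all genes from -0.02 to between -0.04 and 0.04. Centring along mean expression and then transcript length left 3 members higher by the wider rule. Centring along coding length, chosen after seeing the data, left 1 higher by the 2-fold rule, 3 higher and 1 lower, HJURP, by the wider rule. Centring along transcript length and GC content, also chosen after seeing the data, left 1 lower by the wider rule, SPC25. The median log2 ratio of the members stayed below 0 throughout, from -0.18 to -0.04. The correlation of length with ratio over the members turned to -0.11 with the median transcript length of a gene and fell to 0.36 for transcript length without the 5 members over 6000 coding bases. The cause of these changes was not tested. Over all measured genes, 467 were higher and 92 lower by the 2-fold rule and 1624 and 835 by the wider one. These became 284, 46, 957 and 566 at a minimum of 5 CPM, where fewer genes were tested, and 337, 48, 1125 and 356 after coding-length centring. Without a minimum, 612 and 150 met the 2-fold rule. Depth limits CENPE (76 and 162 reads), CENPQ (199 and 151) and SGO2 (139 and 225) most.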
